A study of Mus musculus with 6 samples.

Results

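Claudins are membrane proteins that form the strands of tight junctions, and 10 claudin genes known from intestinal and related epithelium (Cldn2, Cldn3, Cldn4, Cldn6, Cldn7, Cldn8, Cldn12, Cldn15, Cldn18 and Cldn23) were followed here among 19938 measured genes. They were chosen by name: a row of the deposited table had to be annotated to that symbol alone, and each of the 10 genes had 1 such row. RNA came from small intestinal tissue of mouse embryos shortly before birth (E18.5), 3 arrays from an E-cadherin conditional knockout (cKO) and 3 from control embryos labelled wild type. E-cadherin, encoded by Cdh1, holds neighbouring epithelial cells together at adherens junctions. The sources used here do not say what drives the recombination, which exons are deleted or whether each array is a separate animal. The p-values therefore measure the spread among these 6 arrays, and that spread may be technical. The comparison asks how claudin transcripts differ between intestine labelled E-cadherin cKO and control.

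Tight junctions seal the space between neighbouring epithelial cells, and the claudins in them set which ions and water pass. In studies of cultured epithelia and mice, some claudins tighten the barrier, here Cldn3, Cldn4, Cldn6, Cldn8 and Cldn18, and some form cation pores, here Cldn2, the leak channel of immature and crypt epithelium, and Cldn15, which returns sodium to the lumen for nutrient uptake. For Cldn7, Cldn12 and Cldn23 the role differs between studies or is little studied, and they are given apart. Adherens junctions and tight junctions lie side by side at the apical end of the lateral membrane, and E-cadherin contacts are known to help tight junctions assemble.

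Expression values are log2 values made by the authors, read as such from their range. A difference is the cKO mean minus the control mean on that log2 scale, with its standard error (SE) from limma, and a gene is said to have risen or fallen when its limma p, adjusted over all 19938 genes by the Benjamini-Hochberg method, was at or below 0.05. Levels of different genes are not compared with each other, because each row has its own probes. Background was read on each array from 1231 chemosensory receptor genes (olfactory, vomeronasal, taste) that gut should hardly express. Their 95th percentile lay at 5.79 to 6.26 on the cKO arrays and at 6.21 to 6.36 on the control arrays. Of the 10 claudins, 8 lay above it on all 6 arrays. The exceptions were Cldn6, below it on every control array and on cKO 1 and cKO 3, and Cldn8, below it on cKO 3.

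Arrays of the same group correlated at 0.972 to 0.978 for cKO and at 0.981 to 0.987 for control over all genes, against 0.929 to 0.966 between groups. Cdh1 itself read 9.70, 8.38 and 8.91 on cKO 1, 2 and 3 and 9.86, 9.82 and 10.15 on the control arrays, a difference of -0.95 (SE 0.31) that did not pass the threshold (limma adjusted p = 0.088; exact two-sided permutation p = 0.1, the smallest possible with 3 against 3). The array labelled cKO 1 lay only 0.24 below the control mean, so values without it are given for Cdh1, Cldn3, Cldn4, Cldn8, Cldn12 and Cldn23. Without it the Cdh1 difference was -1.30 (adjusted p = 0.012). Because cKO 1 was picked by its Cdh1 value, this larger difference follows from the choice. With any other single array left out Cdh1 did not pass the threshold (adjusted p = 0.15 to 0.26), and without cKO 2 its difference was -0.64. With all arrays Cdh1 passed the threshold with median centring (0.045), array weights (0.011) and the intensity trend (0.048). Array cKO 3 carried pancreatic transcripts: the mean level of 8 pancreatic markers was 9.59 there, against 6.23 and 6.44 on cKO 2 and cKO 1 and 6.58 to 6.65 on the control arrays. On cKO 2 the receptor genes lay lower than elsewhere, by 0.37 relative to the control mean. Smooth muscle markers were higher in the cKO in 7 of 7 genes, with mean levels of 11.28 to 11.43 in cKO and 10.30 to 10.61 in control, and macrophage markers in 6 of 8, with 8.11 to 8.39 in cKO and 7.32 to 7.47 in control. Of 10 epithelial markers, 4 keratin genes rose, Muc13 and Cdhr5 fell, and Epcam differed by -0.10 (95% interval -0.36 to 0.16, adjusted p = 0.59). Lgals4, Vil1 and Cdh17 were also lower without passing the threshold, at -0.31, -0.31 and -0.15 (limma adjusted p = 0.098, 0.19 and 0.51). Squamous epithelial markers rose in 2 of 10 genes and neural markers in 1 of 6, and 0 of 8 pancreatic markers passed the threshold. Over all genes, 6.81% rose and 7.36% fell, the shares to set beside each of these marker counts. The samples were bulk tissue, so fewer cells of a type and less RNA per cell cannot be told apart.

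Of the 10 claudins, 3 rose (Cldn4, Cldn3 and Cldn23), where 6.81% of all genes rose, and 1 fell (Cldn12), where 7.36% of all genes fell. Among the 12063 genes above background on all 6 arrays, the shares were 8.85% and 9.97%, and the 4 called claudins are among those genes. The median difference of the 10 was -0.15, against -0.09 over all genes. The barrier-sealing genes held both ends of the range, with Cldn4 at 3.08 and Cldn8 at -2.14, while the pore-forming genes lay at -0.41 and -0.27 and did not pass the threshold. The cKO and control arrays did not overlap for 6 of the 10, where 35.4% of all genes had groups that did not overlap. For Cldn3, Cldn4 and Cldn23 all cKO arrays were higher, as for 16.0% of all genes, and for Cldn8, Cldn12 and Cldn15 all were lower, as for 19.3%.

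**Figure D1:**
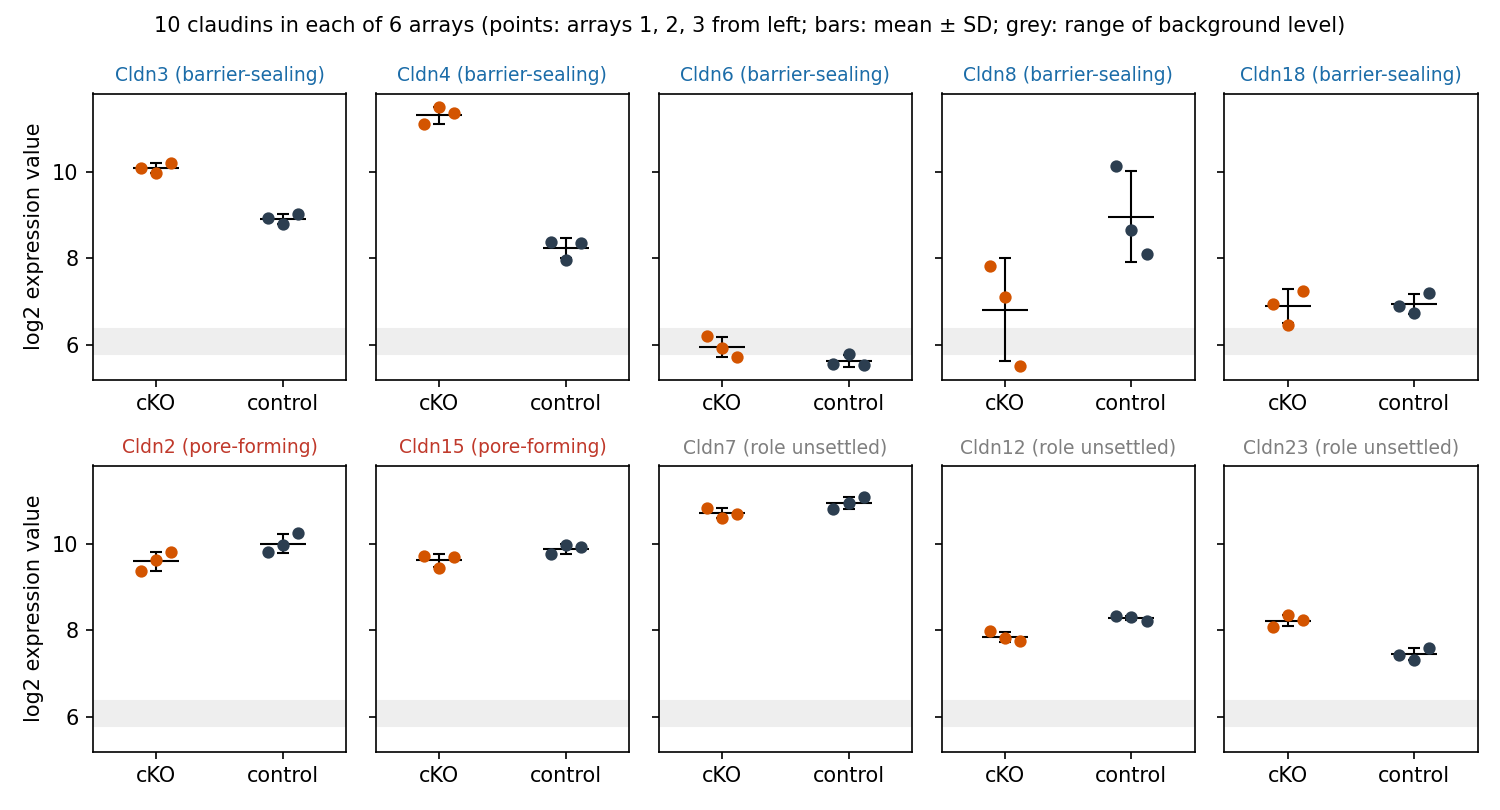
Log2 expression value (y axis) of each of the 10 claudins on the cKO arrays (orange, left) and control arrays (dark, right), points 1, 2 and 3 from left to right, with mean ± SD and the range of the background level in grey. The cKO points of Cldn4 lie at 11.09 to 11.48 and its control points at 7.96 to 8.37, whereas the points of Cldn8 are widely spread in both groups.

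The barrier-sealing claudin gene Cldn4 (probe set 10534395), known to lower sodium permeability in cultured kidney epithelium, changed most of the 10. It read 11.09, 11.48 and 11.34 on cKO 1, 2 and 3, against 8.37, 7.96 and 8.35 on control 1, 2 and 3. Every cKO array lay far above every control array, and the spread within either group was small beside that gap. The cKO mean was 11.30 ± 0.20 and the control mean 8.23 ± 0.23 (SD, n = 3 each), a difference of 3.08 (SE 0.16, limma adjusted p = 0.00038) or 8.44-fold (95% interval 6.48 to 10.99). It ranked 12 of 19938 genes by the size of the increase. The difference was 3.18 without cKO 1 and 3.06 without cKO 3, the array with pancreatic transcripts.

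Cldn3 (probe set 10526241), a broadly expressed barrier-sealing claudin of the intestine, also rose. Its values were 10.09, 9.96 and 10.20 on the cKO arrays, against 8.93, 8.79 and 9.01 on the control arrays. The arrays of each group lay close together, and the groups were clearly apart. The difference was 1.17 (SE 0.12, limma adjusted p = 0.0017), which is 2.26-fold (95% interval 1.85 to 2.75). Leaving out cKO 1 gave 1.17 and leaving out cKO 3 gave 1.12.

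Cldn4 and Cldn3 are next to each other on chromosome 5 in the GRCm38.p6 gene table, on opposite strands with their start sites facing each other. Their neighbours were therefore compared, a choice made after the values of the pair were seen. Of the 3 nearest protein-coding genes on either side (Tmem270, Cldn13 and Mettl27 beyond Cldn4, and Abhd11, Stx1a and Bud23 beyond Cldn3), 0 of 6 passed the threshold of limma in either direction, where 14.2% of all genes did, and Mettl27 alone had an unadjusted p under 0.05. Mettl27, the gene directly beyond Cldn4, differed by -0.57 (SE 0.16, adjusted p = 0.063), and Abhd11, directly beyond Cldn3, by 0.14 (SE 0.12, adjusted p = 0.49). Cldn13, the third claudin of the cluster, lay below background on all 6 arrays.

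**Figure D2:**
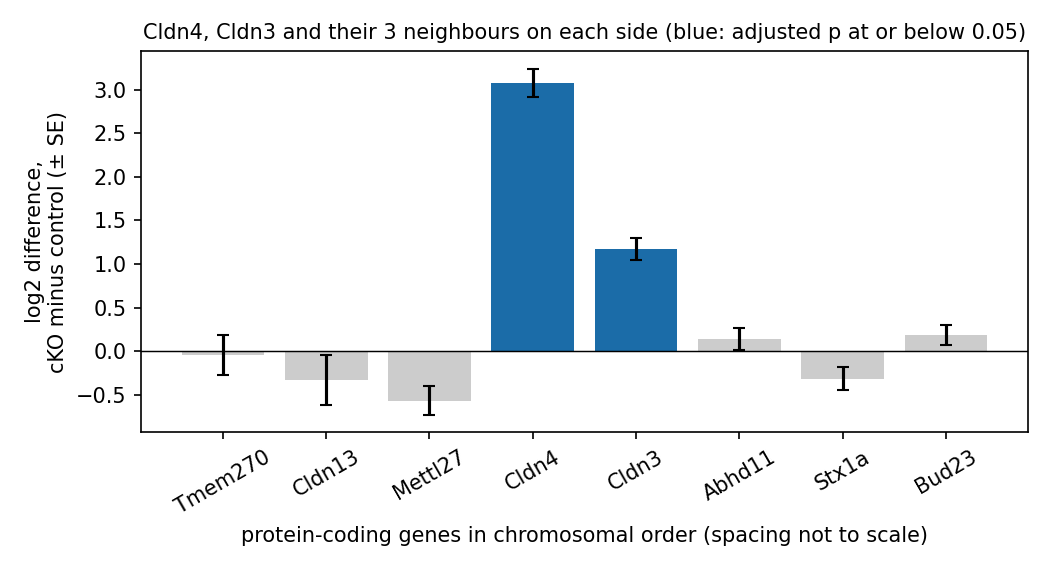
Log2 difference, cKO minus control, with SE (y axis) for Cldn4, Cldn3 and the 3 protein-coding genes on either side in chromosomal order (x axis, spacing not to scale). The bars of Cldn4 and Cldn3 stand at 3.08 and 1.17, and the others lie between -0.57 and 0.19.

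The sequences just upstream of these genes are shown because the neighbours Cldn4 and Cldn3 rose together while the pore-forming genes Cldn2 and Cldn15 did not pass the threshold. They are the 250 bases before the annotated start site in RefSeq (build GRCm38.p6), 5′ to 3′ on the gene's strand, and 8 of the 10 claudins had such an entry. Capitals mark matches, on either strand, to 7 motifs. The AP-1 motif searched was TGANTCA, the E-box bound by Snail and ZEB factors was CAGGTG, and the CDX motif was TTTATG. The GATA motif was AGATAA, the TEAD motif was GGAATG, the GRHL motif was AACCNGTT and the HNF4 motif was CAAAGTCCA. None of the marked matches overlap.
Cldn4, chr5:134946935-134947184, minus strand: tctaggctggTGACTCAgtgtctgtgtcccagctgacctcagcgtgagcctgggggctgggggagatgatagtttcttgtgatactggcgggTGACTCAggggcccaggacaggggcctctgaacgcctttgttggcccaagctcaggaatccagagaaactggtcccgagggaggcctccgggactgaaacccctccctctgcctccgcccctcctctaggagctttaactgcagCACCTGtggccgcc
Cldn3, chr5:134985964-134986213, plus strand: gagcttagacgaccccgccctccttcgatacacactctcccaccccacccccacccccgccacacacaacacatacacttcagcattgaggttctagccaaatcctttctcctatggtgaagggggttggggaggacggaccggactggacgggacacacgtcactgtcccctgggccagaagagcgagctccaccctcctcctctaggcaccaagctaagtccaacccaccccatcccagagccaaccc
Cldn2, chrX:139800558-139800807, plus strand: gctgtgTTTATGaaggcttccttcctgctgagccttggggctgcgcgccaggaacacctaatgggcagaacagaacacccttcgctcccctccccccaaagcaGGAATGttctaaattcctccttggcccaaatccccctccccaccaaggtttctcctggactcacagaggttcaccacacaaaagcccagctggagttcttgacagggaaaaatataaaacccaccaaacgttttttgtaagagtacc
Cldn15, chr5:136967619-136967868, plus strand: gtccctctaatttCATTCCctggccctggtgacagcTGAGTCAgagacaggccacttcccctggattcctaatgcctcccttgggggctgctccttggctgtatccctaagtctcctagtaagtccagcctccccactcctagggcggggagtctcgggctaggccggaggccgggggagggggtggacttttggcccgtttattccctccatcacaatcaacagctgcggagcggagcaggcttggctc

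The Cldn4 window held the AP-1 letters at 2 places, whose first bases lie at -240 and -158 relative to the start site, and an E-box whose first base lies at -14. The Cldn3 window held none of the 7 motifs. Among the pore-forming genes, the Cldn2 window held a CDX and a TEAD match and the Cldn15 window an AP-1 and a TEAD match. Of the claudins whose windows are not printed, Cldn6 had an E-box, Cldn7 E-boxes and a TEAD match, and Cldn18 GATA matches. The windows of Cldn12, which fell, held none of the motifs. Over all 32851 RefSeq windows of this length, AP-1 letters were found in 6.75%, the E-box in 17.2%, CDX in 10.8%, TEAD in 12.6% and GATA in 9.99%. These matches describe letters and do not show binding.

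Cldn8 (probe set 10440647), a barrier-sealing claudin of the distal gut and kidney, varied most between arrays. It read 7.83, 7.10 and 5.51 on cKO 1, 2 and 3, against 10.12, 8.66 and 8.09 on control 1, 2 and 3. No cKO array reached the lowest control array, but the groups came close to each other, and the value of cKO 3 lay below background. The cKO mean was 6.81 ± 1.19 and the control mean 8.96 ± 1.05 (SD, n = 3 each), so the cKO was lower by a difference of -2.14 (SE 0.68). Its 95% interval was -3.74 to -0.55, and its limma adjusted p of 0.081 missed the threshold. Without cKO 3 it was -1.49 (adjusted p = 0.17) and without control 1 it was -1.56 (adjusted p = 0.19), while without cKO 1 it was -2.65 (adjusted p = 0.052). Of 15 alternative fits, 3 called it lower. They were those with array weights (adjusted p = 0.0077), the intensity trend (0.045) and a block for replicate number (0.0032). With array weights 7 of 8 pancreatic markers rose and 1 fell, against 0 called in the main fit. That fit thus leans on cKO 3, the array with pancreatic transcripts, where Cldn8 was below background.

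The other barrier-sealing members were dim. Cldn6 (probe set 10442327), a claudin of embryonic epithelium that is known to be shut off after birth, read 6.2, 5.94 and 5.73 on the cKO arrays, against 5.57, 5.78 and 5.53 on the control arrays. Of these 6 values only that of cKO 2 lay above its array's background, so no fold is given. The gene adjacent to Cldn6, Cldn9, is a close sequence relative whose signal could cross over, and it read 6.11, 5.74 and 6.28 on the cKO arrays and 5.95, 5.78 and 6.19 on the control arrays.

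Cldn18 (probe set 10596014), the claudin of gastric and lung epithelium, read 6.94, 6.47 and 7.25 on the cKO arrays, against 6.90, 6.74 and 7.19 on the control arrays. The groups overlapped, and the difference was -0.06 (95% interval -0.56 to 0.45, adjusted p = 0.88), with its sign turning to 0.15 without cKO 2 and to 0.07 without control 3. Of 13 stomach markers, 8 lay below background on all 6 arrays. The threshold was passed by 0 of the 13 (0 at unadjusted p under 0.05 in limma), where 14.2% of all genes passed. Their mean level was 5.65 to 6.14 in cKO and 6.0 to 6.09 in control.

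The pore-forming claudins were slightly lower in the cKO without passing the threshold. Cldn2 (probe set 10602033) read 9.36, 9.62 and 9.80 on the cKO arrays, against 9.80, 9.96 and 10.24 on the control arrays, so that cKO 3 equalled control 1. Its difference was -0.41 (95% interval -0.80 to -0.02, SE 0.17, limma adjusted p = 0.16). Cldn15 (probe set 10526514) read 9.71, 9.44 and 9.70 on the cKO arrays, against 9.75, 9.97 and 9.93 on the control arrays. The groups did not overlap, yet their nearest values almost touched, and the difference was -0.27 (95% interval -0.57 to 0.03, adjusted p = 0.22). Of these 2 genes 0 passed the threshold, where 14.2% of all genes did, and 1, Cldn2, had an unadjusted p under 0.05. With quantile normalization the differences were -0.27 for Cldn2 and -0.15 for Cldn15. Cldn15 is also expressed by mesothelium, whose markers rose in 4 of 7 genes, where 6.81% of all genes rose. Their mean levels were 7.60 to 8.15 in cKO and 7.08 to 7.31 in control. The part of these cells in the Cldn15 value was not tested.

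Set side by side, the 5 barrier-sealing genes had a median difference of 0.33, with 2 risen and 0 fallen. The 2 pore-forming genes had -0.34, with neither risen nor fallen. Over all genes 6.81% rose and 7.36% fell, with a median of -0.09, so 0 called in a class this small is what most genes would give. The sealing median is the value of Cldn6, which lay above background on only 1 of 6 arrays, so this contrast of medians rests on a dim probe set. The array means of the sealing genes lay 0.70, 0.46 and 0.27 above their control mean on cKO 1, 2 and 3, and those of the pore-forming genes lay at -0.41, -0.41 and -0.19 relative to theirs. On control 1, 2 and 3 the sealing genes lay at 0.25, -0.15 and -0.10 and the pore-forming genes at -0.17, 0.02 and 0.14. Control 1 thus deviated in the same directions, and by nearly as much, as cKO 3. The sealing mean also joins differences of opposite sign, because Cldn4 and Cldn8 are both in it. The count of 0 fallen sealing genes leaves out Cldn8, which was called lower with array weights, the intensity trend and the replicate block. It also leaves out Cldn1, a barrier claudin outside the listed genes, which fell as given below.

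**Figure D3:**
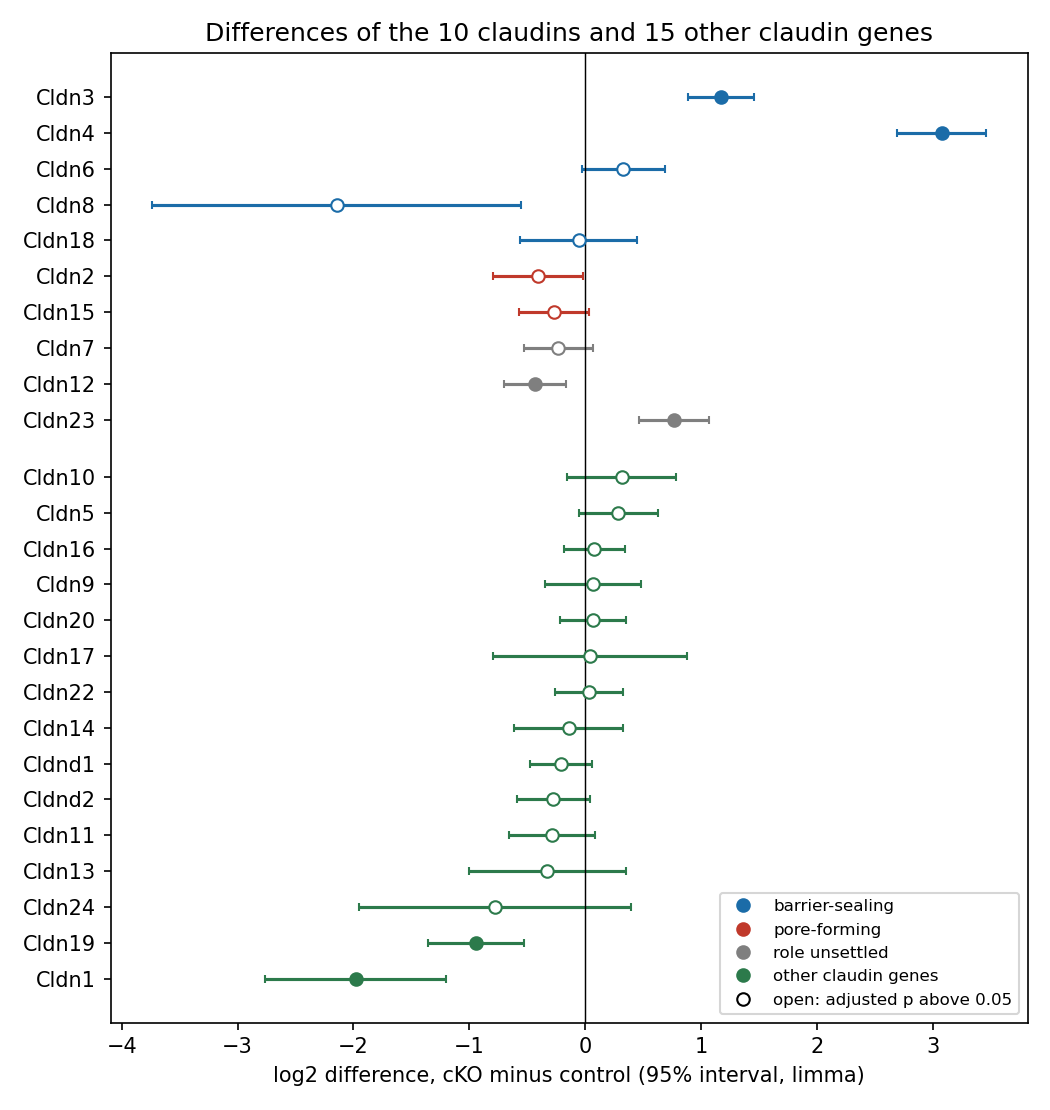
Log2 difference, cKO minus control (x axis), with 95% interval from limma for the 10 claudins (top, coloured by role) and 15 other claudin genes (bottom, green), filled where the adjusted p was at or below 0.05. Cldn4, Cldn3 and Cldn23 are filled right of 0, and Cldn12, Cldn19 and Cldn1 are filled left of 0.

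Among the claudins of unsettled role, Cldn23 (probe set 10578203), a claudin of the differentiated, luminal epithelium, rose. It read 8.08, 8.34 and 8.24 on the cKO arrays, against 7.43, 7.32 and 7.60 on the control arrays. The groups did not overlap, and the gap between them was wider than the spread within either. The difference was 0.77 (SE 0.13, limma adjusted p = 0.0084), or 1.71-fold (95% interval 1.38 to 2.10). It was 0.84 without cKO 1 and 0.76 without cKO 3. Without control 2 it was 0.71 with an adjusted p of 0.0500008, just above 0.05, so Cldn23 was not called there.

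Cldn12 (probe set 10527965), a claudin linked to paracellular calcium and lacking the usual C-terminal binding motif for scaffold proteins, fell by a small amount. Its values were 7.98, 7.82 and 7.74 on the cKO arrays, against 8.32, 8.31 and 8.22 on the control arrays. Controls were nearly alike and every cKO array was lower. The difference was -0.44 (SE 0.11, limma adjusted p = 0.044), with the cKO at 0.739 of the control level (95% interval 0.614 to 0.889). The call was lost when cKO 2, cKO 3, control 1, control 2 or control 3 was left out (adjusted p = 0.070, 0.15, 0.13, 0.16 and 0.099), with differences between -0.38 and -0.47. Only without cKO 1 was it kept (-0.50, adjusted p = 0.041).

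Cldn7 (probe set 10377673), a lateral membrane claudin that binds EpCAM and is known to be required for intestinal integrity after birth, was bright on all arrays. It read 10.83, 10.59 and 10.69 on the cKO arrays, against 10.79, 10.94 and 11.08 on the control arrays, and the groups overlapped. The difference was -0.23 (95% interval -0.53 to 0.07, adjusted p = 0.28), and -0.02 with quantile normalization. Its binding partner Epcam read 11.81 to 11.86 on the cKO arrays and 11.84 to 12.05 on the control arrays.

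**Figure D4:**
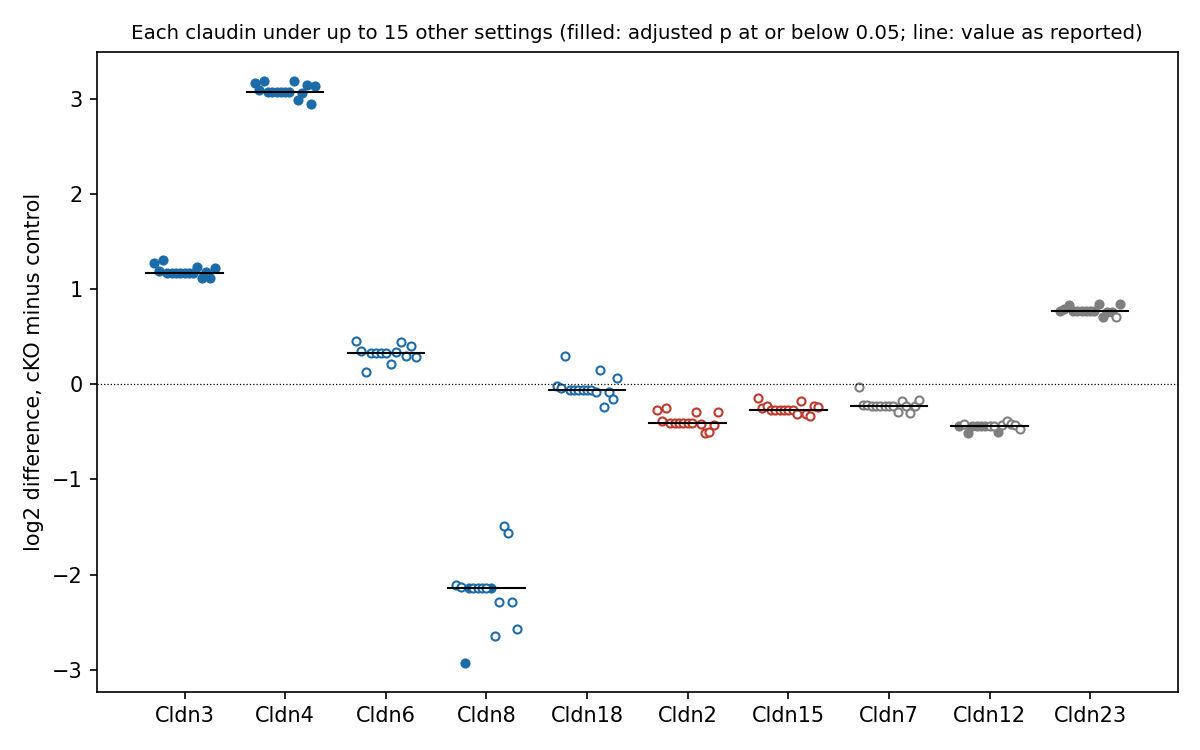
Log2 difference, cKO minus control (y axis), of each claudin under up to 15 other settings of the processing or with single arrays left out (points, filled where the adjusted p was at or below 0.05), beside the value as reported (line). The points of Cldn4 lie between 2.94 and 3.19 and those of Cldn8 between -2.93 and -1.49.

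A list of 20 other claudin and claudin-domain genes had 15 measured members, of which 0 rose (0 at unadjusted p under 0.05 in limma) and 2 fell, where 6.81% and 7.36% of all genes did, with a median difference of -0.14. Cldn1, the barrier claudin of skin and many epithelia, read 4.98, 6.26 and 5.88 on the cKO arrays, against 7.81, 7.97 and 7.28 on the control arrays. The groups did not overlap, and cKO 1 and cKO 3 were below background. Its difference was -1.98 (SE 0.33, limma adjusted p = 0.0088), a value of uncertain size because only 1 of 3 cKO arrays measured the gene above background. Cldn19, known for magnesium reabsorption in kidney, read 6.50, 6.13 and 6.37 on the cKO arrays and 7.0, 7.26 and 7.57 on the control arrays, a difference of -0.94 (SE 0.18, adjusted p = 0.013) that was not called without control 2 (-0.95, adjusted p = 0.057). The endothelial claudin Cldn5 differed by 0.29 (adjusted p = 0.25; 0.43 and 0.042 without cKO 2), where endothelial markers had mean levels of 8.38 to 8.47 in cKO and 8.25 to 8.27 in control. Among the remaining genes of smallest p, Cldnd2 differed by -0.27, Cldnd1 by -0.21 and Cldn11 by -0.29, with adjusted p of 0.23 to 0.29. In this list 6 genes lay below background on all 6 arrays, as did 5 further genes of the Cldn34 group outside the list.

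Of 22 measured tight junction partners of the claudins, 8 rose and 0 fell (3 lower at unadjusted p under 0.05 in limma), where 6.81% and 7.36% of all genes did, with a median difference of 0.25 against -0.09 over all genes. The number that fell was 1 with quantile normalization, the intensity trend or either filter on dim genes, 2 without cKO 2 and 3 with array weights. The partners that rose include Ildr1, an angulin that marks junctions where 3 cells meet, at 1.16 (SE 0.22, adjusted p = 0.014). They also include the junctional adhesion molecule genes Jam3, F11r and Jam2 at 0.93, 0.59 and 0.51. The scaffold genes Mpdz and Tjp1, which encodes ZO-1, rose by 0.60 and 0.55, and Arhgef2 and Ybx3, the second of which encodes a transcription factor held at tight junctions, by 0.63 and 0.61. Their adjusted p was 0.0097 to 0.040. Without control 2, 0 of the 8 passed (8 partners higher at unadjusted p under 0.05), and without control 3 and cKO 3, 3 and 4 passed. Over all 19938 genes 509, 667 and 658 rose in these fits, against 1358 in the main fit. Jam2, Jam3 and Mpdz are also expressed by vessels, nerves or muscle. The part of cells outside the epithelium was not tested for these or for the other partners that rose. Occludin, Ocln, differed by 0.24 (95% interval -0.05 to 0.53, adjusted p = 0.25), and the scaffold gene Patj by -0.43 (adjusted p = 0.051).

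Of 29 measured genes known to regulate claudins, 4 rose and 5 fell, where 6.81% and 7.36% of all genes did, with a median of -0.15 against -0.09 over all genes. Those that rose were the repressor genes Zeb1, Zeb2 and Snai2, at 0.82, 0.58 and 0.58, and Wnk1, a kinase gene, at 0.51. Zeb and Snail factors repress claudin genes in other epithelia, and they are expressed by mesenchyme, whose smooth muscle markers were higher in the cKO as given above. Those that fell were the membrane protease gene Prss8 at -1.26 (SE 0.14, adjusted p = 0.0019) and the intestinal transcription factor genes Gata6, Hnf4a, Cdx2 and Cdx1, at -1.09, -0.88, -0.79 and -0.60. CDX and HNF factors are known to act on the Cldn2 promoter in cell lines. Without control 2 the list had 1 risen and 4 fallen genes, where 509 and 717 of all 19938 genes rose and fell. Without control 3 it had 1 and 4, where 667 and 838 of all genes did. Snai2 was not called when any single array was left out. Wnk1 was called in only 1 of these 6 fits, the one without cKO 2, and with the mean of its rows it was 0.34 (adjusted p = 0.18). The grainyhead gene Grhl2, an activator of Cldn4 in other epithelia, differed by -0.14 (adjusted p = 0.54), and Grhl3 by 0.34 (adjusted p = 0.096).

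**Figure D5:**
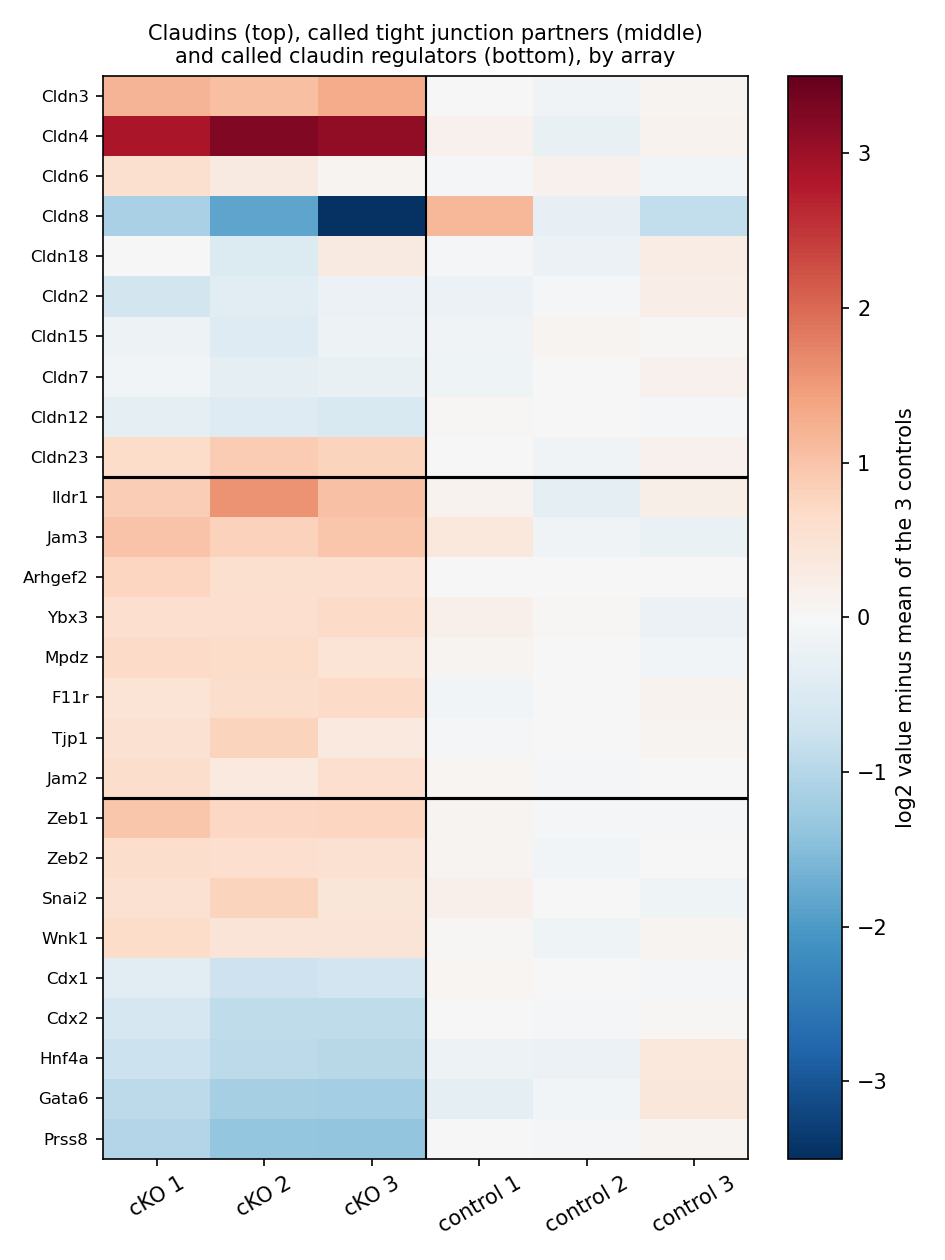
Log2 value minus the mean of the control arrays (colour, red higher and blue lower) for the 10 claudins (top), the 8 tight junction partners that rose (middle) and the 9 claudin regulators that rose or fell (bottom), on the cKO arrays (left) and the control arrays (right). Cldn4 is dark red on all cKO arrays, and Cldn8 is blue on them with its deepest value on cKO 3.

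The genes whose deviations from the control mean over the 6 arrays were nearest to those of Cldn4, by Euclidean distance, were Plaur, the urokinase receptor gene, Mboat1, a lysophospholipid acyltransferase gene, Mmp10, a stromelysin gene, and Plet1, an epithelial surface gene, at distances of 0.67, 0.73, 0.75 and 0.88. Their own differences were 2.97, 2.73, 3.14 and 3.21. For Cldn12 they were Kdelr1, Vps26c, Car13 and Rnf41, at distances of 0.09 to 0.12 and differences of -0.41 to -0.44. Likeness over 6 arrays in 2 groups mostly reflects the group difference and is a description only.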

How the data were processed

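RNA of 6 samples was hybridised to Affymetrix Mouse Gene 1.0 arrays and analysed with dChip by the authors, per the labels and the design text. The deposited values are log2 expression values, read as such from their range (0 to 14.07, with 2 decimals). The sources used here do not state the background correction, the normalization or the dChip version. The values were used as deposited. The table has 35512 rows (probe sets). By GEO's platform annotation 21789 have 1 symbol, 1621 several and 12102 none listed. Symbols were updated through gene identifiers (21698 found in the GRCm38.p6 table). For 999 genes with several rows the row with the highest mean was kept. Groups follow the sample titles. All genes were fitted with limma 3.58.1 in R 4.3.3 (lmFit and eBayes, two-sided, no covariate, Benjamini-Hochberg threshold 0.05) after the fit was tested on simulated data. Arrays give no read depth, and their number limits the precision. The members, lists and tests were chosen with earlier results of these data known.

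All 10 claudins, Cdh1, and of each list the genes past the threshold and up to 6 of smallest p could be named, with the 4 genes nearest to the called claudins at either end of the range. Other genes named (Ocln, Patj, Epcam, Muc13, Cdhr5, Lgals4, Vil1, Cdh17, Grhl2, Grhl3, Cldn9 and the neighbours of members) were chosen after their values were seen. Alternatives were quantile normalization, median centring, array weights, an intensity trend, filters on dim genes (above background on at least 3 arrays, or without the dimmest 25%), the mean of a gene's rows, a fit over all rows, a replicate block and leaving out each array.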

Additional observations from a re-analysis of the deposited data

How the results depend on the processing

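Over 15 alternatives, the 10 claudins gave 148 values, because Cldn6 did not pass the filters on dim genes. Of these, 145 kept their direction and 133 also their side of the threshold. Cldn3 and Cldn4 were called in all 15. The number of claudins that rose was 3 in every alternative but the one without control 2, where it was 2 (range 2 to 3 with single arrays left out). The number that fell was 1 in the main analysis, 0 with median centring and with a fit over all rows, 2 with array weights and with the intensity trend, and 0 to 1 with single arrays left out. Cldn12 was not called with median centring (adjusted p = 0.067) or over all rows (0.095), and Cldn8 was called with array weights (-2.93, adjusted p = 0.0077) and the intensity trend (0.045). Cldn18 turned to 0.30 with array weights, 0.15 without cKO 2 and 0.07 without control 3 (range -0.24 to 0.15 with single arrays left out). With array weights, 2 of the 15 other claudins rose, Cldn5 and Cldn10, where 2921 of all 19938 genes rose. This count is near the share over all genes, and Cldn10 lay below background on all 6 arrays. Tjp1 and Snai2 were not called with median centring (adjusted p = 0.069 and 0.057). The cause was not tested.

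The sample titles give replicate numbers without saying whether same-numbered arrays belong together. Deviations of same-numbered arrays correlated at -0.08, 0.13 and 0.14, and cKO 1 correlated best with control 3 (0.15). With so few arrays per group, these correlations cannot show whether arrays were paired. With the replicate block, 2212 genes were called in place of 2825, with Cldn8 called (-2.14, adjusted p = 0.0032) and Cldn12 not (-0.44, adjusted p = 0.094). Genes called over all numbered 5834 with array weights, 1548 with a fit over all rows, and 1226 and 1505 without control 2 and control 3 and 1517 without cKO 3. The share of higher calls was 48.1%, and 55.0% with quantile normalization. Signal over background limits Cldn6 and, on cKO 3, Cldn8.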

Other observations

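Rows annotated to a claudin and another gene were not used above. There were 4, and 0 passed the threshold in a fit over all rows, with differences of 0.41 to 0.56 and adjusted p of 0.090 to 0.20.

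The 4 genes whose deviations were nearest to those of Cldn8, a query made after its values were seen, were Ugt2b36, a glucuronosyltransferase gene, Nrn1, which encodes neuritin, Fgb, the fibrinogen beta chain gene, and Slc15a2, a peptide transporter gene. Their distances were 1.10 to 1.52 over 6 arrays, larger than those of the genes nearest to Cldn4. On control 1 they lay 0.93, 0.25, 1.09 and 1.24 above their control means, where Cldn8 lay 1.16 above its own.

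Among 53 measured neighbours of the 10 claudins, 5 rose and 3 fell, where 6.81% and 7.36% of all genes did. The neighbour with the highest difference was Tnfrsf12a, a TNF receptor family gene that lies beside Cldn6, at 1.91 (SE 0.20, limma adjusted p = 0.0017), picked out once its value was known. Its cKO mean was 9.45 and its control mean 7.53, while Cldn6 and Cldn9 beside it lay at or near background.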
